A study of Saccharomyces cerevisiae with 23 samples.

Results

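Messenger RNA levels were followed for 138 genes of chromosome XI in budding yeast populations carrying mixed aneuploidies, against euploid populations made by the same route. The genes were chosen by their measured counts, as those of chromosome XI whose level differed little between the euploid tetrad-dissection population and the haploid control. A gene entered the set when its mean over the 23 libraries was at least 5 CPM (counts per gene scaled to a fixed library total) and its log2 ratio between these euploid samples, with 0.5 CPM added to each, was below 1 in size. This ratio is called the growth-state ratio here, and whether it reflects growth was not tested. Of 348 chromosome XI genes in a table of 6596, 305 met the CPM minimum. The growth-state limit left out 98 genes that were higher and 69 that were lower in the euploid tetrad-dissection population. The rule took 2288 genes on the other 15 chromosomes, called the insensitive genes elsewhere below. "Insensitive" here means a difference of less than 1 log2 unit, not no difference: 118 of the 138 passed the test between these euploid samples, where 47.1% of all tested genes were called higher and 43.6% lower. That contrast chose the genes, so nothing is read from it.

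All 23 libraries were labelled strain BY4741, a laboratory strain of Saccharomyces cerevisiae, and none had a drug or other treatment. The aneuploid populations A1, A2 and A3 came from a-selection and T1 and T2 from tetrad dissection, the separation of the spores of a meiosis. Their references were a euploid a-selection population (Aeu), a euploid tetrad-dissection population (Teu) and a haploid control. Each population had 3 libraries and the haploid control had 2. Cells grew overnight in YPD rich medium and were refreshed in it for 4 h at 23 °C in deep-well plates. The study described its aneuploid populations as karyotypically heterogeneous. Which chromosomes the cells carried in extra copies is not stated in the labels, and neither is whether the libraries of a population came from separate cultures. P-values therefore measure the spread between libraries, which may be technical. In bulk RNA, many cells with a small gain in a transcript and few cells with a large one cannot be told apart.

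An aneuploid cell has a chromosome number that is not a whole multiple of the basic set. In yeast the transcripts of most genes on a gained chromosome are known to go up roughly with gene copy number, while growth rate and stress shift the levels of many genes across all chromosomes. Each budding yeast chromosome is held to the spindle through a short point centromere made of elements CDEI, CDEII and CDEIII, bound by Cbf1, wrapped with the Cse4 nucleosome and bound by the CBF3 complex. A chromosome that is not held in this way can be passed on in the wrong number.

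The centromere of chromosome XI is shown because it divides the gene set into arms and is the zero point of the positions used here. It lies at chrXI:440129-440246 on the minus strand of build R64 and is 118 bp long. The RefSeq sequence is printed from 5′ to 3′ with CDEI (10 bp) and CDEIII (25 bp) in capitals and the CDEII stretch (83 bp, 95.2% A and T) in lower case.
CEN11: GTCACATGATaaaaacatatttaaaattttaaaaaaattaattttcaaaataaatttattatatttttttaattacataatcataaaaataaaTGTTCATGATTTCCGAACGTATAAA
Of the 138 genes, 91 lie left and 47 right of it, with 65 on the plus and 72 on the minus strand where the annotation gives one. The first begins at position 3503 and the last ends at position 657756 of the 666816 bp chromosome.

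Library totals were 12719710 to 19327344 counts. All 138 genes passed the low-count filter, and 135 of them had at least 100 counts in every library, the lowest count being 21. Their mean levels spanned 5.13 to 8026.5 CPM with a median of 72.5 CPM. Genes just inside the growth-state limit were ALY1 (log2 ratio 0.989) and RMA1 (-0.996), and just outside it BYE1 (1.006) and SRP21 (-1.009). Just inside the CPM minimum were YKL162C-A (5.13 CPM) and YKR104W (7.24 CPM), and just outside it YKR041W (4.68 CPM) and YKR047W (4.37 CPM).

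In the a-selection route the chromosome XI genes were mostly higher in the aneuploid populations than in Aeu. Of the 138, 95 rose and 19 fell in A1, 108 rose and 4 fell in A2, and 100 rose and 8 fell in A3 (edgeR quasi-likelihood test, adjusted p under 0.05). Over all 6111 genes tested, 36.6% rose and 35.7% fell in A1, 36.4% rose and 35.9% fell in A2, and 40.2% rose and 39.7% fell in A3. The median log2 fold change of the set was 0.18 in A1, 0.25 in A2 and 0.25 in A3, a median change of 1.13-fold, 1.19-fold and 1.19-fold. The insensitive genes elsewhere had a median of -0.03 in A1 and in A2 and of -0.00 in A3, and all tested genes had medians of 0.01, 0.00 and 0.00. Most individual changes were small, since 4, 3 and 5 of the 138 genes reached a log2 fold change of 1 in A1, A2 and A3.

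In the tetrad-dissection route fewer of the genes rose and more fell in T2 than in T1. In T1, 77 of the 138 genes rose and 17 fell against Teu, where 38.2% of all tested genes rose and 43% fell. In T2, 62 rose and 47 fell, where 40.5% of all tested genes rose and 44.4% fell. The count of risen genes in T2 was thus close to the background, and its split was sensitive to scaling. Upper-quartile scaling gave 75 rises and 30 falls, and a fit of T2 and Teu alone gave 68 rises and 33 falls. The shares over all tested genes under these settings are not given, so these counts are not set against a background. The median log2 fold change of the set was 0.14 in T1 and 0.05 in T2, against -0.03 and -0.01 for the insensitive genes elsewhere. The T2 median was 0.14 with upper-quartile factors, 0.11 in the fit of T2 and Teu alone, 0.081 with RLE factors and 0.032 without Teu replicate 2. A scaling factor moves all genes of a library together, and medians of the insensitive genes elsewhere under these settings are not given. The distance of the set from those genes was thus not compared between scalings. Teu is one of the samples that chose the genes, so the tetrad-dissection values are not independent of the choice in the way the a-selection values are.

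**Figure D1:**
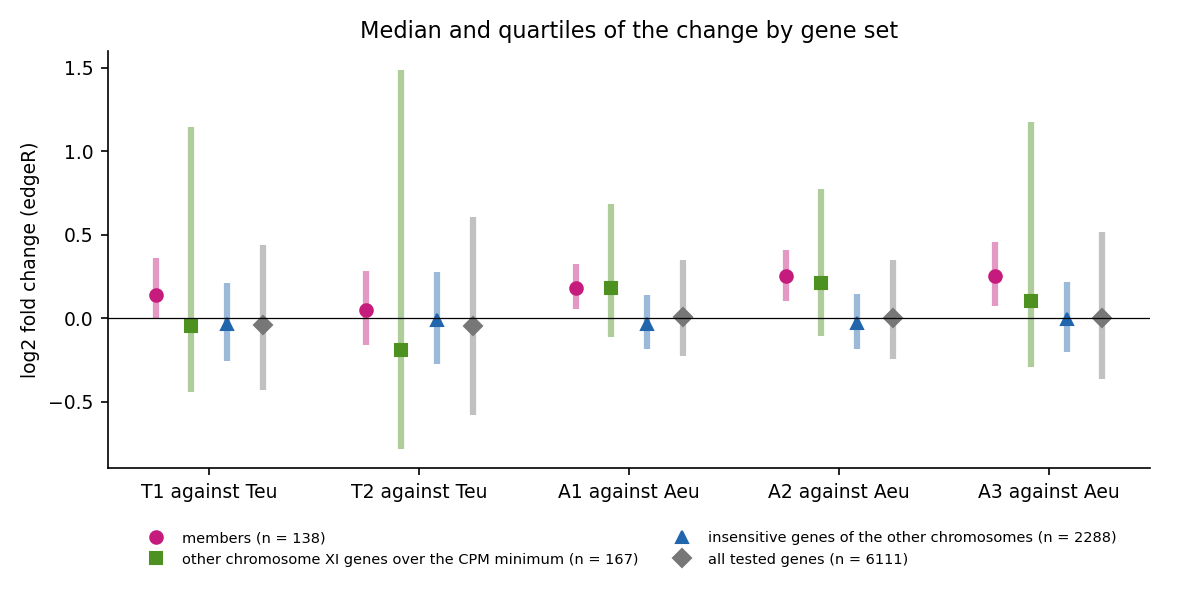
Median log2 fold change (y axis, points) with the quartiles (bars) of 4 gene sets in the 5 aneuploid populations, each against the euploid population of its own route. The 138 chromosome XI genes sit above the insensitive genes elsewhere in all 5 comparisons, with medians of 0.18 in A1, 0.25 in A2, 0.25 in A3, 0.14 in T1 and 0.05 in T2.

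The shift was similar from library to library. Taking each library against the mean of its own-route euploid libraries, the median over the 138 genes was 0.17, 0.18 and 0.19 in A1, 0.27, 0.26 and 0.24 in A2, and 0.25, 0.24 and 0.27 in A3. The T1 libraries had medians of 0.15, 0.14 and 0.14, and the T2 libraries 0.06, 0.03 and 0.06. Every one of the 15 aneuploid libraries was thus above 0. All 3 libraries were above all 3 Aeu libraries for 93 genes in A1, 111 in A2 and 101 in A3, where 37.7%, 37.6% and 40.9% of tested genes did the same. In T1 75 genes and in T2 61 genes were above Teu in this way, where 38.3% and 40% of tested genes were. The 61 genes in T2 are 44.2% of the 138, close to the background. All 3 libraries were below the euploid libraries for 17 genes in A1, 7 in A2, 9 in A3, 17 in T1 and 49 in T2. The share over all tested genes was not taken for this direction.

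The 167 other chromosome XI genes over the CPM minimum had medians of 0.18 in A1, 0.21 in A2, 0.10 in A3, -0.04 in T1 and -0.19 in T2. Ranked by the median of their insensitive genes, chromosome XI ranked 2 of 16 chromosomes in A1, A2 and A3. Chromosome VIII, with 102 such genes, was first there with medians of 0.36, 0.45 and 0.45. Chromosome IX lay below XI with 0.16, 0.19 and 0.19, and chromosome I had 0.14, 0.22 and -0.11. Chromosome XI ranked 3 in T1, where chromosome III led with 0.16, and 7 in T2, where chromosome XIII led with 0.20. Against the haploid control, which the rule used and which therefore gives a description only, the medians of the 138 genes were 0.08 in A1, 0.10 in A2, 0.15 in A3, 0.12 in T1, -0.01 in T2, -0.09 in Aeu and -0.04 in Teu. The insensitive genes elsewhere had medians of -0.13, -0.11, -0.11, -0.14, -0.13, -0.09 and -0.08 against it.

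The largest rises in the a-selection route, by the mean of A1, A2 and A3, were those of KTI12, YKR075C, HAP4, RMA1, STB6 and SHE2. KTI12 encodes a protein that works with Elongator in modifying wobble uridines of tRNA, and it lies at chrXI:228939-229880. Its level, in CPM after TMM scaling as for all gene levels below, was 53.7, 55.1 and 55.8 CPM in A1, 48.2, 47.6 and 52.1 CPM in A2, 67.3, 64.8 and 65.3 CPM in A3, and 19.9, 21 and 22.2 CPM in Aeu. Every a-selection aneuploid library was above every Aeu library, and the log2 fold change was 1.38 ± 0.05 in A1, 1.23 ± 0.05 in A2 and 1.65 ± 0.04 in A3 (SE; edgeR adjusted p = 9.51e-18, 1.03e-16 and 7.59e-20). In the other route KTI12 had 48.8, 45.9 and 44.6 CPM in T1, 56.7, 56.2 and 56.1 CPM in T2, and 61.7, 60.1 and 65.7 CPM in Teu. It fell by 0.43 in T1 (adjusted p = 1.53e-09), and its -0.15 in T2 passed the test (adjusted p = 0.00177) but not with upper-quartile factors (adjusted p = 0.162). Aeu held the lowest levels of the study, and the haploid control the highest at 108 and 106 CPM.

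HAP4, the activating subunit of the Hap2/3/4/5 complex that turns on respiratory genes, is the neighbour of KTI12, 2346 bp away and on the opposite strand. Its level was 305, 307 and 294 CPM in A1, 286, 277 and 287 CPM in A2, 279, 284 and 289 CPM in A3, and 126, 115 and 124 CPM in Aeu. The a-selection groups did not overlap with Aeu, and the log2 fold changes were 1.31, 1.22 and 1.22, each ± 0.03 (edgeR adjusted p of 4.49e-19 or lower). In T1 HAP4 had 310, 319 and 312 CPM, in T2 233, 224 and 220 CPM, and in Teu 291, 315 and 317 CPM. T2 was below Teu by a log2 fold change of -0.45 (adjusted p = 1.24e-11), while T1 overlapped Teu at 0.03 (adjusted p = 0.427). In T1 HAP4 did pass with upper-quartile factors (log2 0.085, edgeR adjusted p = 0.0192) and with DESeq2 (log2 0.071, adjusted p = 0.0461). The haploid control, at 264 and 273 CPM, was again closer to the aneuploid libraries than to Aeu.

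STB6, whose product binds the Sin3 corepressor, repeated this order. It had 34.8, 34.1 and 35.6 CPM in A1, 29.8, 28.9 and 30.6 CPM in A2, 30.6, 29.3 and 30.1 CPM in A3, and 16.5, 16.7 and 15.9 CPM in Aeu. It rose by 1.09, 0.86 and 0.87 on the log2 scale (edgeR adjusted p of 7.39e-14 or lower). In T1 it had 30.2, 32.5 and 29.3 CPM, in T2 33.3, 33.8 and 35.1 CPM, and in Teu 48.2, 48.4 and 48.4 CPM, so it fell by 0.66 in T1 and by 0.50 in T2 (adjusted p = 9.02e-13 and 9.69e-11).

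YKR075C, an open reading frame without an annotated function, was the gene with the largest rise in T1 and T2. Its level was 556, 556 and 548 CPM in T1, 833, 848 and 863 CPM in T2, and 108, 106 and 99.5 CPM in Teu. In the other route it was 443, 447 and 461 CPM in A1, 427, 417 and 416 CPM in A2, 614, 614 and 615 CPM in A3, and 186, 191 and 184 CPM in Aeu. Aneuploid and euploid libraries did not overlap in either route. The log2 fold changes were 2.40 and 3.02 in T1 and T2, each ± 0.03, and 1.27, 1.17 and 1.72 in A1, A2 and A3, each ± 0.02 (edgeR adjusted p of 1.7e-21 or lower). The haploid control had 192 and 193 CPM. YKR075C shares 270 bp with YKR075W-A on the other strand, and the labels do not say if counting used strand, so reads of the pair may not be separable.

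**Figure D2:**
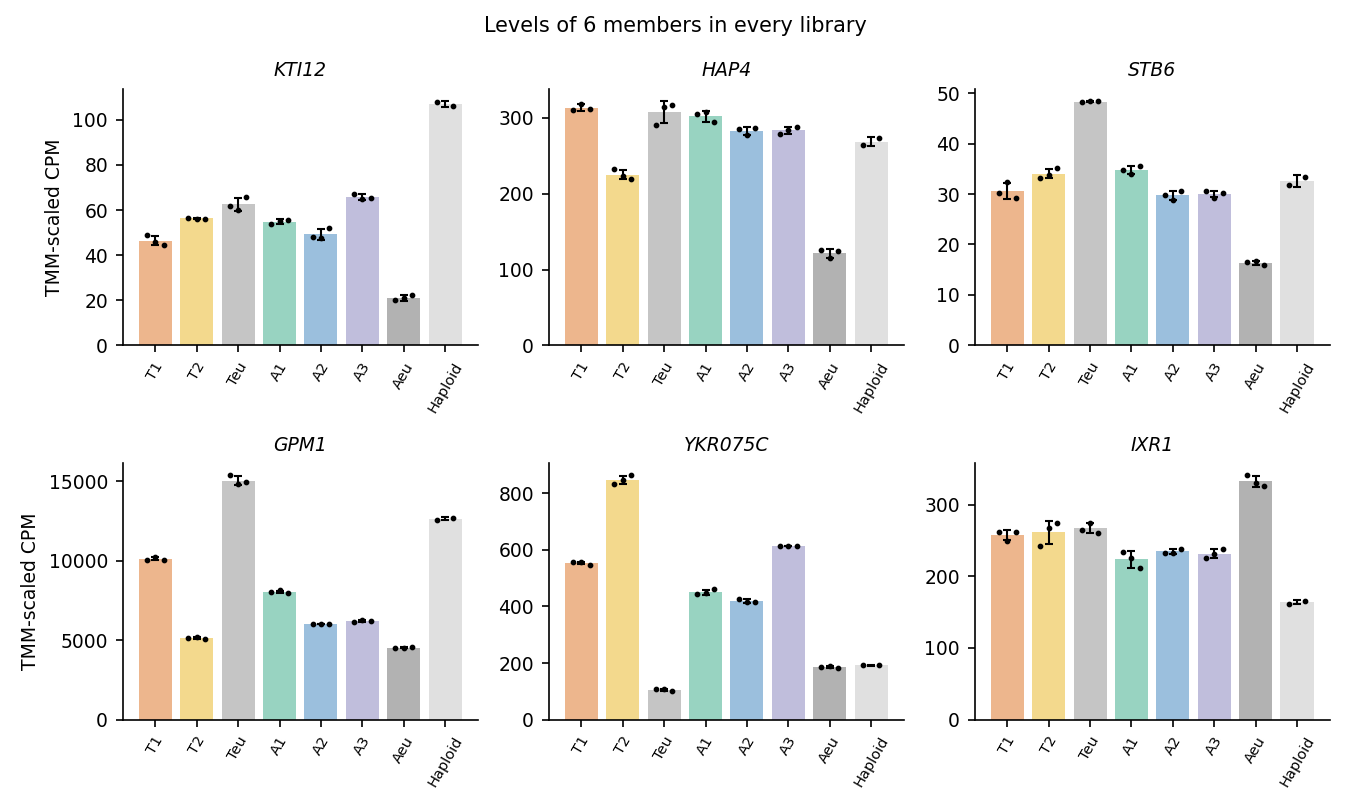
Level of KTI12, HAP4, STB6, GPM1, YKR075C and IXR1 in CPM after TMM scaling (y axis from 0; TMM is edgeR's trimmed mean of M-values) by group. Points are libraries, bars are means and error bars are SD (n = 3, and 2 for the haploid control); KTI12, HAP4 and STB6 are lowest in Aeu, YKR075C is highest in T2 and IXR1 is highest in Aeu.

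SHE2 encodes the RNA-binding protein that carries ASH1 and other mRNAs into the bud. It had 44.8, 47.9 and 44.4 CPM in A1, 50.6, 49.5 and 48.8 CPM in A2, 55.5, 51.4 and 52.9 CPM in A3, and 27.9, 27.3 and 27.2 CPM in Aeu. In T1 it had 42.2, 44.6 and 44.9 CPM, in T2 44.6, 42.4 and 42.3 CPM, and in Teu 27.3, 24.7 and 32.7 CPM. Unlike KTI12 and STB6 it was higher in every aneuploid library of both routes than in the euploid libraries of that route. Its log2 fold changes were 0.73, 0.85, 0.96, 0.64 and 0.61 in A1, A2, A3, T1 and T2, each ± 0.06 (edgeR adjusted p of 3.53e-09 or lower). Its level in Aeu and Teu did not differ detectably (log2 -0.03 ± 0.07, adjusted p = 0.661). RMA1, which resembles folylpolyglutamate synthetases and overlaps the reading frame YKL131W by 389 bp, rose by 0.97, 0.89 and 1.12 in A1, A2 and A3. In T2 it rose by 0.44, and its 0.15 in T1 did not pass (adjusted p = 0.0885). In T1 RMA1 did pass with RLE factors (edgeR adjusted p = 0.0308), upper-quartile factors (0.0236) and DESeq2 (0.0487).

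Few genes of the set fell in all of A1, A2 and A3. IXR1, a DNA-binding repressor of hypoxic genes, had 234, 225 and 211 CPM in A1, 233, 233 and 238 CPM in A2, 226, 231 and 238 CPM in A3, and 341, 330 and 326 CPM in Aeu. All 9 aneuploid libraries were below all 3 Aeu libraries, and IXR1 fell by 0.57, 0.50 and 0.52 on the log2 scale (edgeR adjusted p of 4e-11 or lower). Its values of -0.05 in T1 and -0.03 in T2 did not pass (adjusted p = 0.227 and 0.462). PAN3, a subunit of the Pan2-Pan3 poly(A) nuclease, fell by 0.38, 0.28 and 0.37 in A1, A2 and A3, and its 0.03 in T1 and -0.08 in T2 did not pass. PAN3 did pass in T1 with upper-quartile factors (log2 0.09, edgeR adjusted p = 0.0324). In T2 it passed without Teu replicate 2 (log2 -0.10, edgeR adjusted p = 0.0358). RAM2, the alpha subunit shared by the enzymes that attach prenyl lipids to proteins, fell by 0.14, 0.12 and 0.15 in A1, A2 and A3. RAM2 fell further in the other route, by 0.78 in T1 and 0.97 in T2, with 119, 116 and 122 CPM in T1, 102, 105 and 107 CPM in T2, and 206, 208 and 197 CPM in Teu. ECM9 fell by 0.18 in A1, 0.31 in A3, 0.26 in T1 and 0.74 in T2. Its -0.13 in A2 lost the call without A2 replicate 2 or Aeu replicate 2 (edgeR adjusted p = 0.219 and 0.173). The same happened without replicate 3 of either group (0.057 each). The ECM9 call in A2 was also lost with upper-quartile factors (0.118), scaling on the insensitive genes elsewhere (0.0805) and DESeq2 (0.0601).

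PXL1 and MSA2 were the next largest rises of the tetrad-dissection route after YKR075C. PXL1, a paxillin-like protein of sites of polarized growth and the division site, had 79.9, 79.9 and 77.5 CPM in T1, 67.7, 67.9 and 72.1 CPM in T2, and 32.6, 33.0 and 31.5 CPM in Teu. It rose by 1.29 and 1.10, each ± 0.04 (edgeR adjusted p = 3.48e-18 and 7.92e-17), and by 0.61, 0.76 and 0.75 in A1, A2 and A3. MSA2, a regulator of G1-specific transcription, rose by 1.22 in T1 and 0.99 in T2, and by 0.31, 0.40 and 0.34 in A1, A2 and A3. Its level was 29.5, 27.8 and 28.4 CPM in T1, 22.8, 24.96 and 25.5 CPM in T2, and 12.9, 11.5 and 12.5 CPM in Teu, without overlap.

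By role, 56 of the 138 genes fell into 13 lists. The lists also name chromosome XI genes outside the set. The set held 2 of 11 listed genes of ribosome biogenesis and RNA polymerase and 3 of 11 of mitochondrial energy metabolism. It held 2 of 9 of glycolysis and sugar metabolism, 1 of 12 of translation, and 9 of 11 of the spindle and cell cycle. The counts per list are a description and are to be read beside the whole set, of which 68.8% rose in A1, 78.3% in A2, 72.5% in A3, 55.8% in T1 and 44.9% in T2. No test between lists was made. Of 9 genes of the spindle and cell cycle, 7 rose in A1, 8 in A2 and 7 in A3, and 1 fell, in A3. The same 9 gave 4 rises and 1 fall in T1 and 3 rises and 3 falls in T2. The gene that fell in A3 was ASH1, the daughter-cell repressor of HO, which rose by 0.55 in A1 and 0.47 in A2. ASH1 fell by 0.10 in A3 and by 0.93 in T2, and its -0.07 in T1 (adjusted p = 0.0356) lost the call in several alternatives, including without any single T1 library and without Teu replicate 3. CNB1, the regulatory subunit of calcineurin, rose by 0.20 in A2 and 0.38 in A3, with -0.03 in A1 not passing. TOR2, a phosphatidylinositol kinase-related kinase of growth and actin organization, passed in none of A1, A2 and A3.

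Of 10 genes of vesicle traffic and the vacuole, 8 rose in A1, 9 in A2 and 8 in A3, and 1 fell, in A1. In T1 5 of them rose and 1 fell, and in T2 4 rose and 3 fell. VMA5, subunit C of the vacuolar proton pump, rose by 0.32, 0.28 and 0.50 in A1, A2 and A3 and fell by 0.15 in T1 and 0.16 in T2. VPS1, a dynamin-like GTPase of vacuolar sorting, rose by 0.17, 0.25, 0.14 and 0.36 in A1, A2, A3 and T1. The gene that fell in A1 was PTM1 (-0.11), a membrane protein of the Golgi region, which rose in A2 (0.11).

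All 4 genes of the proteasome and folding list rose in A1 and A2, and 3 of 4 in A3 and T1. RPT1, an ATPase of the proteasome cap, had 414, 414 and 408 CPM in T1, 383, 381 and 386 CPM in T2, and 225, 228 and 226 CPM in Teu. It rose by 0.86 in T1 and 0.76 in T2, and by 0.20, 0.37 and 0.54 in A1, A2 and A3 (edgeR adjusted p of 3.43e-09 or lower). UFD4, a ubiquitin ligase, rose by 0.33, 0.18 and 0.42 in A2, A3 and T1. Its 0.10 in A1 passed but lost the call without A1 replicate 1 (adjusted p = 0.068) and without Aeu replicate 2 (adjusted p = 0.105). MPE1, on the same list, is best known for cleavage and polyadenylation of mRNA, and it rose by 0.24 in A1 and 0.25 in A2. Its 0.13 in A3 passed with edgeR (adjusted p = 0.0036) but not with DESeq2 (adjusted p = 0.0511).

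Both genes of the set on the list of ribosome biogenesis and RNA polymerase rose in all 5 populations. RRN3, the initiation factor that recruits RNA polymerase I to ribosomal DNA, had 41.1, 39.6 and 41.7 CPM in A1, 48.9, 46.6 and 51.2 CPM in A2, 63.4, 63.3 and 66.2 CPM in A3, and 28.9, 32.0 and 29.9 CPM in Aeu. Its rise was 0.43 in A1, 0.69 in A2 and 1.09 in A3, and the 3 aneuploid populations did not overlap each other. In the other route it rose by 0.68 in T1 and 1.07 in T2. CTK1, a kinase of the RNA polymerase II tail, rose by 0.25, 0.47 and 0.66 in A1, A2 and A3 and by 0.70 and 0.77 in T1 and T2.

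The 3 genes of the set on the list of mitochondrial energy metabolism, HAP4, NFU1 and CYT2, rose in A1, A2 and A3. NFU1, which takes part in iron-sulfur cluster transfer, rose by 0.58, 0.50 and 0.53 in A1, A2 and A3 and by 0.26 and 0.20 in T1 and T2. CYT2, the haem lyase of cytochrome c1, rose by 0.23, 0.41 and 0.75 and by 0.36 and 0.39 in the same order. Of the 7 genes of the mitochondrial ribosome and import, 2 rose in A1, 5 in A2, 4 in A3 and 5 in T1, and 3 rose and 3 fell in T2. Their medians were 0.05 in A1, 0.23 in A2, 0.25 in A3, 0.16 in T1 and -0.10 in T2. Of the 8 genes of the set on the list of the nuclear pore and chromatin, 4, 6 and 5 rose and 2, 1 and 1 fell in A1, A2 and A3. In T1 4 of them rose and in T2 4 rose and 3 fell. NAP1 had mean levels of 357, 384 and 393 CPM in A1, A2 and A3, against 351 CPM in Aeu. SIS2 had 173, 196 and 210 CPM against 182 CPM in the same order. SIS2 stood on this list but is annotated as a subunit of the phosphopantothenoylcysteine decarboxylase complex, not of the nuclear pore or chromatin. The call of the SIS2 fall in A1 was lost with upper-quartile factors (edgeR adjusted p = 0.198) and with scaling on the insensitive genes elsewhere (0.185). It was also lost without A1 replicate 1, A1 replicate 3 or Aeu replicate 1 (edgeR adjusted p = 0.0523, 0.0673 and 0.06175). In T1, T2 and Teu NAP1 had 416, 341 and 390 CPM, and SIS2 172, 170 and 155 CPM.

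The remaining lists had 1 to 3 genes each. UTH1, PIR1 and KTR2, genes of the cell wall and of mannosylation, rose in A1, A2, A3 and T1. UTH1, a SUN family protein, rose by 0.20, 0.51 and 1.00 in A1, A2 and A3, with levels of 1246, 1270 and 1164 CPM, 1473, 1524 and 1546 CPM, and 2087, 2109 and 2197 CPM, against 1095, 1050 and 1053 CPM in Aeu. In T2 its 0.12 passed (adjusted p = 0.00646) but not without T2 replicate 2 or T2 replicate 3 (adjusted p = 0.0599 and 0.0512). PRP40, TFA1 and DBR1, of splicing, transcription initiation and debranching, rose in A1 and A2, and the first 2 also in A3. DBR1 fell by 0.25 in T1 and by 0.17 in T2, the T2 call being lost with upper-quartile factors (adjusted p = 0.159). Of the 3 genes of the set on the list of amino acid, sulfur and nucleotide metabolism, 2 rose in A1, 1 in A2, 2 in A3, 1 in T1 and 2 in T2. GMH1 stood on that list, but the annotation used here gives it no such role. GMH1 had mean levels of 61.3, 61.3 and 65.3 CPM in A1, A2 and A3, against 59.2 CPM in Aeu. MET1 had 51.5, 50.4 and 47.3 CPM against 47.8 CPM in the same order. In T1, T2 and Teu GMH1 had 62.2, 67.0 and 49.8 CPM, and MET1 52.7, 52.0 and 50.1 CPM. URA6, the UMP kinase, rose by 0.31, 0.43 and 0.70 in A1, A2 and A3, and LAC1, a ceramide synthase, by 0.75, 0.31 and 0.50. LAC1 was at -0.11 in T1, a call lost under other scalings (adjusted p = 0.0981 with RLE and 0.203 with upper-quartile factors), and its 0.04 in T2 did not pass. With upper-quartile factors LAC1 did pass in T2 (log2 0.13, edgeR adjusted p = 0.003). MEH1 stood in the translation list but belongs to the EGO complex that anchors TORC1 signalling at the vacuole, and it rose by 0.20, 0.40 and 0.41 in A1, A2 and A3. MEH1 was at -0.19 in T2 (adjusted p = 0.00217, and 0.0893 with upper-quartile factors), and its 0.10 in T1 did not pass. In T1 MEH1 did pass with RLE factors (edgeR adjusted p = 0.0133), upper-quartile factors (0.0085) and DESeq2 (0.026), at log2 values of 0.14, 0.15 and 0.14.

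The glycolysis and sugar list held GPM1 and YKR075C, and GPM1 outweighed all others. GPM1, phosphoglycerate mutase of glycolysis, had 10074, 10253 and 10067 CPM in T1, 5126, 5177 and 5075 CPM in T2, and 15367, 14809 and 14926 CPM in Teu. In the other route it had 8019, 8130 and 7960 CPM in A1, 6025, 6003 and 6018 CPM in A2, 6157, 6243 and 6211 CPM in A3, and 4480, 4519 and 4540 CPM in Aeu. No aneuploid library overlapped the euploid libraries of its route, but the directions were opposite. GPM1 rose by 0.83, 0.41 and 0.46 in A1, A2 and A3 and fell by 0.57 in T1 and 1.55 in T2, each ± 0.02 (edgeR adjusted p of 1.78e-15 or lower). It shares 468 bp with a reading frame on the other strand, YKL153W.

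GPM1 alone held 22.9% to 49.9% of the counts of the set, so the share of reads taken by the set followed it. The 138 genes took 8.94% ± 0.05 of the counts of all insensitive genes in T1 and 7.69% ± 0.03 in T2, against 9.58% ± 0.07 in Teu (SD, n = 3 each). In the other route they took 8.62% ± 0.02 in A1, 8.44% ± 0.03 in A2 and 8.50% ± 0.03 in A3, against 7.001% ± 0.02 in Aeu (SD, n = 3 each). Without GPM1 the share was 5.93% in T1 and 5.99% in T2, against 5.09% in Teu, and 6.01% in A1, 6.46% in A2 and 6.52% in A3, against 5.47% in Aeu. The aneuploid populations were then above the euploid population in both routes, with no overlap between libraries. Leaving out GPM1 was chosen after seeing the data. The share weights each gene by its counts and also depends on the counts of the other insensitive genes. It still holds YKR075C, with mean levels of 553 CPM in T1, 848 CPM in T2 and 105 CPM in Teu. The share is thus no measure of a rise across the set, whose median log2 fold change was 0.14 in T1 and 0.05 in T2.

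**Figure D3:**
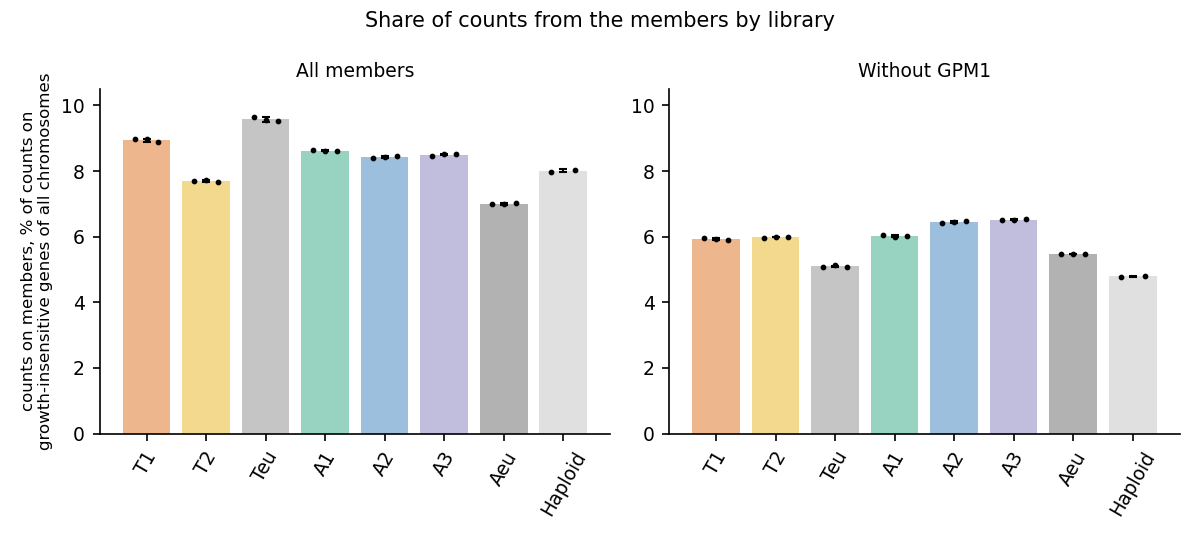
Share of the counts of all insensitive genes that came from the 138 chromosome XI genes (y axis, percent), with all of them and without GPM1. Points are libraries, bars are means and error bars are SD (n = 3, and 2 for the haploid control); with GPM1, T1 and T2 lie below Teu, and without it they lie above Teu at 5.93% and 5.99% against 5.09%.

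A test among A1, A2 and A3 called 100 of the 138 genes (72.5%), where 73.8% of all tested genes were called, so the count was at the background. A3 was higher than A2 for 37 genes and lower for 27, where 34.2% and 30.2% of tested genes were, so both counts were below the background, at 26.8% and 19.6% of the 138. With upper-quartile factors the same pair gave 29 higher and 40 lower, and the share over all tested genes with these factors is not given. A1 was higher than A2 for 10 and lower for 52, where 15.4% and 18.8% of tested genes were, with a median log2 difference of -0.08. The count of 10 fell to 6 without A1 replicate 2 or without A1 replicate 3. T2 was higher than T1 for 21 genes and lower for 72, where 35.9% and 33.2% of tested genes were, with a median log2 difference of -0.12.

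The routes also differed. The contrast of the mean a-selection change minus the mean tetrad-dissection change was positive for 67 genes and negative for 33 (edgeR adjusted p under 0.05), where 38.6% and 33.1% of all tested genes were, with a median of 0.10. Teu enters this contrast and is one of the samples that chose the genes, so its calls and differences are a description. The largest positive differences were those of KTI12 (1.71 ± 0.05), GPM1 (1.63 ± 0.02) and STB6 (1.52 ± 0.05). The largest negative ones were those of YKR075C (-1.32 ± 0.03), MSA2 (-0.76 ± 0.08) and DEF1 (-0.72 ± 0.03). DEF1, which promotes the degradation of stalled RNA polymerase II, rose by 0.71 in T1 and 0.89 in T2, with 286, 294 and 290 CPM in T1, 327, 327 and 329 CPM in T2, and 172, 178 and 181 CPM in Teu. In A3 DEF1 rose by 0.33, in A1 it fell by 0.11, and its 0.03 in A2 did not pass. With upper-quartile factors DEF1 did pass in A2 (log2 0.064, edgeR adjusted p = 0.0395).

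Between the euploid populations the counts were close to the background. Aeu was higher than Teu for 46 of the 138 genes (33.3%) and lower for 49 (35.5%), where 35.5% and 35.1% of tested genes were, with a median of -0.03. With upper-quartile factors the split was 55 higher and 35 lower, and the share over all tested genes with these factors is not given. Of the 138, 4 were lower in Aeu than in Teu by a log2 difference of 1 or more, namely GPM1 (-1.74), KTI12 (-1.57), STB6 (-1.56) and HAP4 (-1.34). These 4 genes have positive route differences, and the contrast holds the Aeu and Teu values of each gene within it. KTI12 was also low in Aeu against the haploid control (log2 -2.35), which is a description, since the haploid control was used by the rule. Teu was used by the rule too, so the values of Aeu against Teu are likewise a description.

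Along the chromosome the median shift in A1, A2 and A3 was positive in every bin of 100 kb, though not among the few genes nearest the chromosome ends in A1. In the bins, counted from the left end, with 16, 20, 22, 21, 26, 25 and 8 genes, the median log2 fold change in A2 was 0.18, 0.31, 0.40, 0.25, 0.26, 0.21 and 0.14. In A3 the medians were 0.25, 0.24, 0.48, 0.20, 0.19, 0.26 and 0.14, and in A1 0.04, 0.19, 0.29, 0.16, 0.18, 0.19 and 0.12. The bin from 200 to 300 kb was the highest in all of A1, A2 and A3, which share the Aeu libraries. It holds 22 genes, among them RRN3, KTI12, HAP4 and STB6, and 17, 19 and 17 of the 22 rose in A1, A2 and A3. In T1 the bin medians were 0.13, 0.29, 0.14, 0.07, 0.13, 0.15 and 0.09. In T2 they were 0.03, 0.15, 0.06, -0.02, 0.02, 0.12 and 0.06, with the highest value of both T1 and T2 in the bin from 100 to 200 kb.

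The difference between arms was not tested. The median was 0.17 on the left and 0.18 on the right arm in A1, 0.26 and 0.24 in A2, 0.27 and 0.24 in A3, 0.15 and 0.13 in T1, and 0.04 and 0.10 in T2. The 13 genes within 25 kb of CEN11 had medians of 0.17 in A1, 0.28 in A2, 0.27 in A3, 0.16 in T1 and 0.01 in T2. The 5 genes within 30 kb of a chromosome end had -0.09 in A1, 0.05 in A2, 0.14 in A3, 0.16 in T1 and 0.11 in T2. The running median over 21 neighbouring genes stayed above 0 at all 118 positions in A1 (0.06 to 0.29), A2 (0.20 to 0.41), A3 (0.14 to 0.50) and T1 (0.07 to 0.26), and crossed 0 in T2 (-0.07 to 0.16). Neighbouring genes were only weakly alike: over 137 neighbour pairs, Pearson's r was 0.16 in A1, 0.20 in A2, 0.07 in A3, 0.07 in T1 and 0.04 in T2. These are correlations across genes of the same libraries, given as a description.

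**Figure D4:**
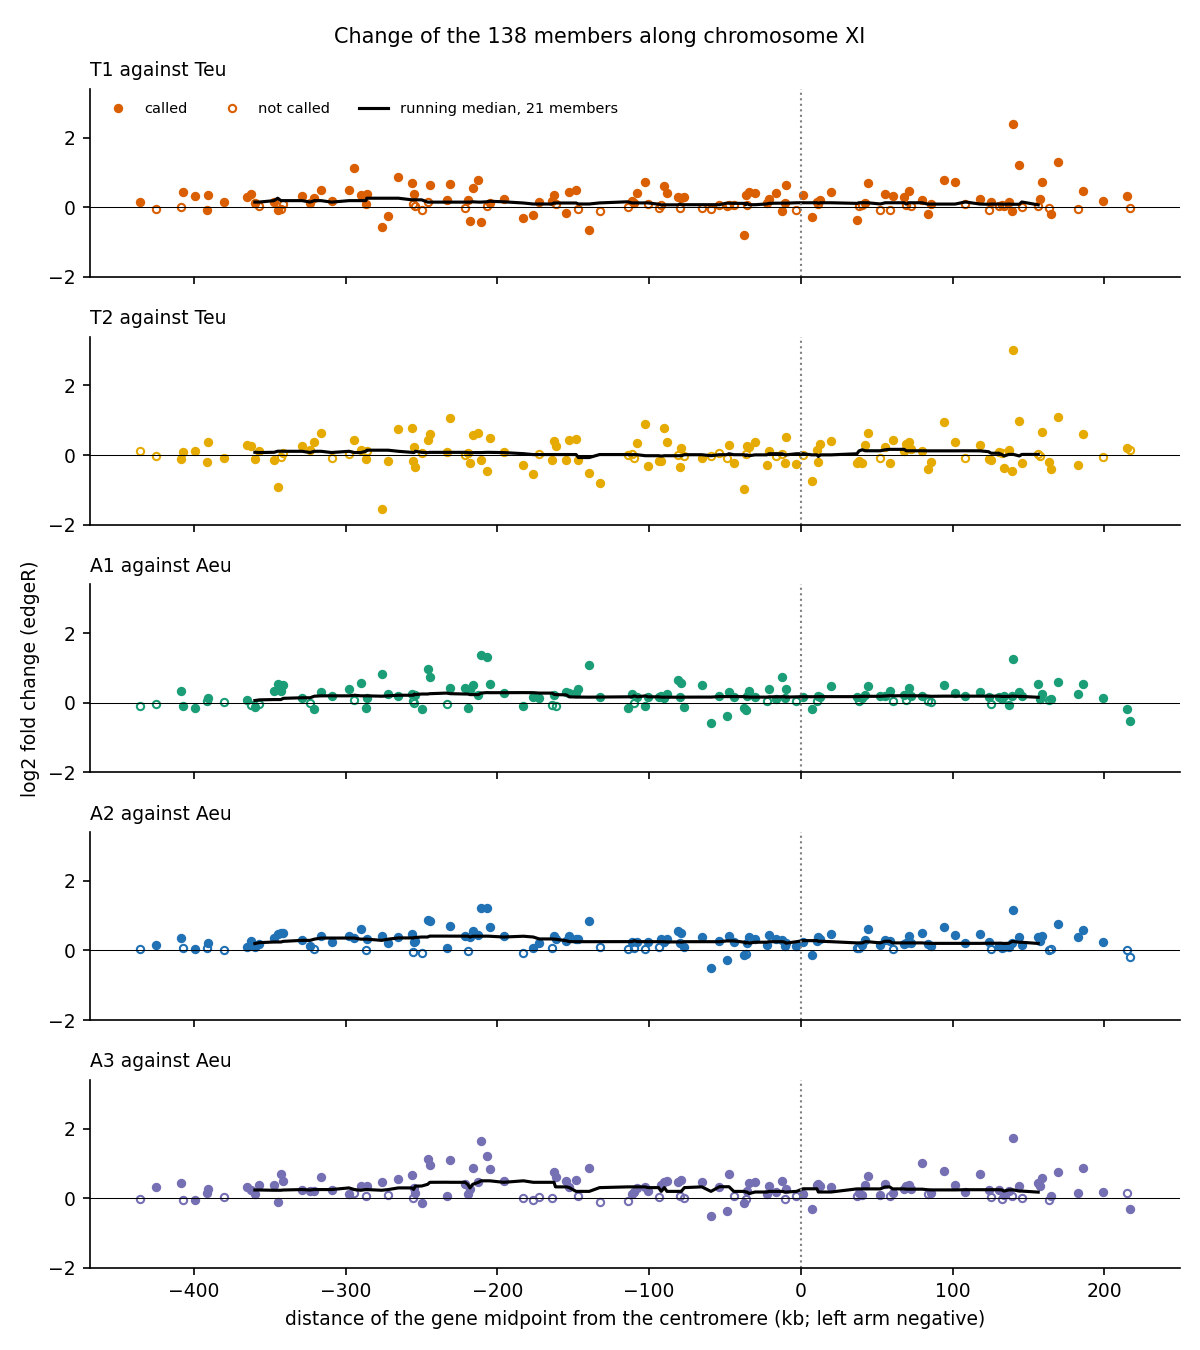
Log2 fold change of each of the 138 genes (y axis) against its distance from the centromere of chromosome XI in kb (x axis, left arm negative), 1 panel for each aneuploid population against the euploid population of its route. Filled points passed the test, open points did not, and the line is the running median over 21 genes, which stays above 0 in A1, A2, A3 and T1 and crosses 0 in T2.

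The shift in the a-selection route was set beside the remaining difference between Teu and the haploid control, the ratio the genes were chosen by. Across the 138 genes, Pearson's r between the fold change and the log2 ratio of Teu to the haploid control was -0.39 in A1, -0.45 in A2 and -0.62 in A3, and Spearman's rho was -0.44, -0.46 and -0.68. The insensitive genes elsewhere had r of -0.18, -0.30 and -0.50 over 2288 genes. The libraries on the 2 axes are different, but the genes share libraries and scaling, and the values are a description.

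Values by the sign of that ratio are also a description, since the ratio chose the genes. For the 80 genes higher in Teu than in the haploid control, the medians were 0.13, 0.18 and 0.12 in A1, A2 and A3, against -0.10, -0.09 and -0.14 for the 1257 such genes elsewhere. For the 58 genes lower in Teu, they were 0.30, 0.38 and 0.45, against 0.04, 0.05 and 0.16 for 1031 genes elsewhere. For the 34 genes whose ratio was within 0.25 log2 units of 0, they were 0.17, 0.24 and 0.24, against -0.05, -0.04 and 0.01 for 627 genes elsewhere. The distance between the chromosome XI genes and the pooled genes of the other 15 chromosomes was 0.22 to 0.33 in all 9 of these comparisons. Single chromosomes were not compared in this way. A gene's mean level, length and GC content had correlations with its shift of 0.16 or less in size, as Pearson's r, in every population.

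**Figure D5:**
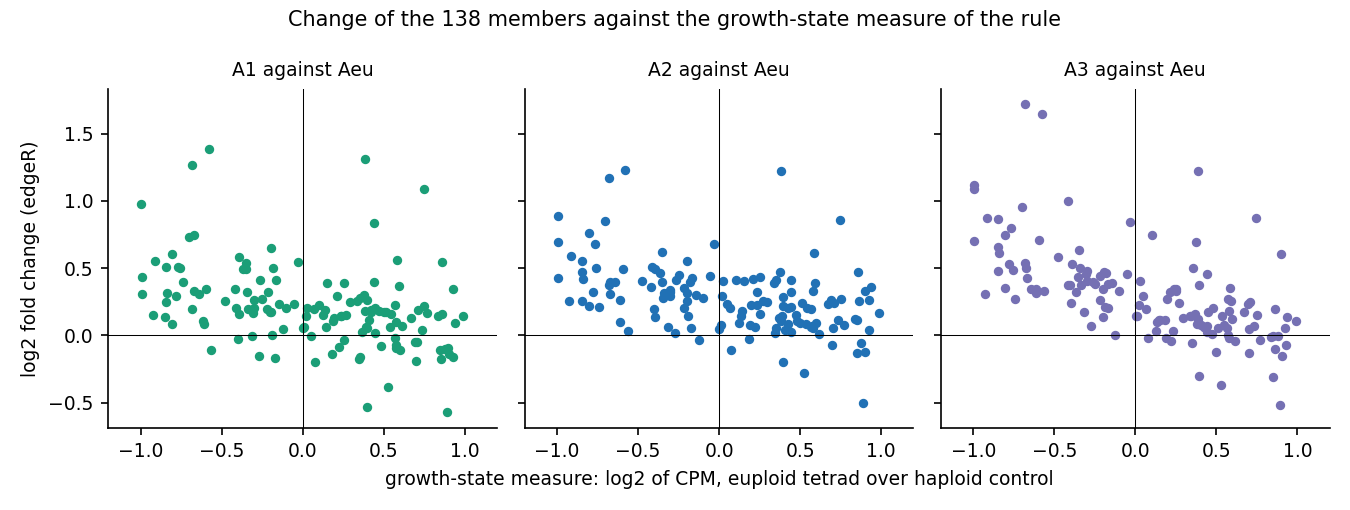
Log2 fold change in A1, A2 and A3 against Aeu (y axis) of the 138 chromosome XI genes (points) against the log2 ratio of Teu to the haploid control (x axis), 1 panel for each population. The points slope down in all 3 panels, with r of -0.39, -0.45 and -0.62.

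By level, the 46 genes with mean levels up to 49.9 CPM had medians of 0.20, 0.32 and 0.35 in A1, A2 and A3, and the 46 genes from 107 CPM upwards had 0.15, 0.20 and 0.18. In T1 the medians were 0.10 for the lower and 0.17 for the higher genes, and in T2 they were 0.11 and 0.015. These differences were not tested.

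The authors' deposited table sets the aneuploid against the euploid populations. Of the 138 genes, 117 had in the authors' deposited table a positive log2 fold change, with a median of 0.17, against -0.01 over all 6316 genes of that table. The authors' deposited table called 2 of the 138 higher at an adjusted p under 0.05, where 2.68% of its genes were called higher. The 2 genes in the authors' deposited table were SHE2 (0.75 ± 0.13 SE, adjusted p = 0.0317) and RQT4 (0.63 ± 0.11 SE, adjusted p = 0.0431), a subunit of the complex that splits stalled ribosomes. RQT4 was named after its values were seen, and it rose by 0.50, 0.62 and 0.64 in A1, A2 and A3 and by 0.71 and 0.63 in T1 and T2 (edgeR quasi-likelihood test, adjusted p under 0.05). The sources used here do not give the model behind the authors' deposited table, so the counts of calls are not set against those above.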

How the data were processed

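RNA-seq gene counts from 23 libraries were used, deposited by the authors as raw counts per gene. The tool list in the submitters' processing notes names HISAT2 (2.0.5) and HTSeq (0.6.1p1), beside FastQC (0.11.5), bcl2fastq (2.17.1.14) and DESeq2 (1.14.1). The build there is R64, and no counting settings are stated. The authors' deposited table of comparisons holds, per the file headers, a mean signal, log2 fold changes with standard errors, a test score, and p-values.

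Counts were fitted in edgeR 4.0.16 (R 4.3.3): filterByExpr, TMM scaling, 1 coefficient for each of 8 groups, quasi-likelihood test, Benjamini-Hochberg adjustment over all 6111 tested genes, calls at adjusted p under 0.05. The steps were tested on simulated data. Gene names, strands and overlaps came from the RefSeq annotation of R64, whose starts matched for 316 of 316 shared chromosome XI genes. Replicate pairs all differed beyond sampling noise (chi-square test).

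The genes, role lists and tests were chosen with earlier results of these data known. Genes named were the 6 highest and 6 lowest in the a-selection route (of which 4 fell in all 3 populations), the 3 highest and 3 lowest in the tetrad-dissection route, the 3 most abundant per role list, the 4 smallest p-values among A1, A2 and A3, and the 3 highest and 3 lowest in the route difference, all at an average log2 CPM of 3 or more. Genes beside the thresholds were named whatever their level. No test was made over the set as a whole. Alternatives covered scaling, filter, test (DESeq2 1.42.0), block, samples fitted, thresholds, single libraries and overlapping genes.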

Additional observations from a re-analysis of the deposited data

Results flagged for a closer look

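The results below differed between populations or routes by a test of the difference itself (edgeR quasi-likelihood test, adjusted p under 0.05). Teu was used to choose the genes and enters the contrast between routes, so the calls of that contrast are a description only. In the contrast of the a-selection change minus the tetrad-dissection change, 67 of the 138 chromosome XI genes were positive and 33 negative, where 38.6% and 33.1% of all tested genes were. KTI12 (1.71), GPM1 (1.63) and STB6 (1.52) had the largest positive log2 differences, and YKR075C (-1.32), MSA2 (-0.76) and DEF1 (-0.72) the largest negative ones. Between populations of 1 route, 37 genes were higher and 27 lower in A3 than in A2, both below the share over all tested genes (34.2% and 30.2%). In A1 against A2, 10 were higher and 52 lower, where 15.4% and 18.8% of tested genes were. In T2 against T1, 21 were higher and 72 lower, where 35.9% and 33.2% of tested genes were. The euploid population of the other route enters the first contrast, and GPM1, KTI12 and STB6 were lower in Aeu than in Teu by 1.74, 1.57 and 1.56 log2 units; the part of this in the route difference was not tested.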

How the results depend on the processing

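Of 435 summary values recomputed, 376 stayed within 1 SD of the spread between libraries or within 1.5 times the count. Other scalings moved the medians but not their direction. A scaling factor moves all genes of a library together, and values of the other genes under these scalings are not given here. RLE factors gave medians of 0.22 in A3, 0.18 in T1 and 0.081 in T2, and DESeq2 gave 0.22, 0.18 and 0.081. Upper-quartile factors gave 0.22 in A1, 0.28 in A2, 0.24 in A3, 0.20 in T1 and 0.14 in T2, with 30 genes lower in T2. Scaling on the insensitive genes elsewhere gave 0.21 in A1, 0.28 in A2 and 0.17 in T1. A fit of only the groups compared gave 0.19 in T1 and 0.11 in T2. The cause was not tested.

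A growth-state limit of 0.5 kept fewer genes and gave 54 higher and 9 lower in A1, 60 and 0 in A2, 59 and 2 in A3, 44 and 8 in T1 (median 0.13), and 35 and 25 in T2 (edgeR). Rises were then 85.7% of the calls in A1, 100% in A2 and 96.7% in A3, against 83.3%, 96.4% and 92.6% for the 138 genes. In T1 and T2 they were 84.6% and 58.3% of the calls, against 81.9% and 56.9%. With no limit, all 305 chromosome XI genes over the CPM minimum were counted. The counts were 188 and 69 in A1, 208 and 48 in A2, and 183 and 81 in A3 (median 0.24). In T1 they were 153 and 97 (median 0.11), and in T2 134 and 138 (median 0.0061). These limits change only which genes are counted, so the shares over all tested genes are those given above. A CPM minimum of 20 gave a median of 0.13 in T1, and so did leaving out genes that overlap another by 20% or more, an alternative chosen after seeing the data. At an adjusted p under 0.01, 5 genes were higher in A1 than in A2; the alternatives for counts between populations were also chosen after seeing the data. Without GPM1, chosen after seeing the data, the share of counts was higher than in the euploid population by 0.833 percentage points in T1 and 0.895 in T2, both reversed, and by 0.543 in A1, 0.985 in A2 and 1.05 in A3.

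Leaving out 1 library at a time, the medians ranged over 0.178 to 0.190 in A1, 0.2504 to 0.273 in A2, 0.240 to 0.268 in A3, 0.128 to 0.149 in T1 and 0.032 to 0.053 in T2. The genes higher in A1 than in A2 then numbered 6 to 8. Of 2990 values of single named genes, 65 lost and 62 gained the call, and 2 changed sign, both in T2 with upper-quartile factors. PTM1, whose T2 and Teu libraries overlapped, passed there at 0.070 (edgeR adjusted p = 0.0133). TOR2 did not pass there, at 0.0048 (edgeR adjusted p = 0.892).

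Replicate numbers did not pair the libraries: over 77 pairs with the same number the correlation of deviations was -0.17 to 0.26, with a median of 0.0045. With the replicate block 95 genes were higher and 18 lower in A1, 108 and 4 in A2, 99 and 8 in A3, 77 and 15 in T1, and 62 and 47 in T2; 8 of 23 libraries correlated best with their own number. Depth did not limit most genes, since 135 of 138 had at least 100 counts in every library.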
